A study of Mus musculus with 2 samples.

Results

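The interferon-induced transmembrane (IFITM) family was followed here through the leukocytes of mouse pancreatic islets. Its members were the 4 genes Ifitm1, Ifitm2, Ifitm3 and Ifitm6, found by symbol among the 32285 genes of the deposited gene lists. The symbols had been picked because they led the largest myeloid cluster and a cluster of barcodes with few unique molecular identifiers (UMIs, each 1 captured transcript) in these same cells. A high level in myeloid cells is therefore what chose them, and levels across cell types are given below as a description without a test. The study compared islet immune cells of 2 groups, each a single library from female mice aged 12 weeks. The first came from WT NOD mice, which become diabetic through autoimmunity without treatment, and the second from mice labelled NOD.Cxcl16-/-, that is, NOD mice with a deletion of the chemokine Cxcl16. Live cells that carried CD45, a leukocyte surface protein, and lacked CD31, an endothelial one, were sorted from hand-picked, dispersed islets. The labels do not give the number of mice behind a library. With 1 library per group there is no replicate, so no difference between the groups could be tested.

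IFITM proteins are small membrane proteins that sit in the plasma membrane or in endosomes and block the fusion of enveloped viruses with the cell. Most are induced by interferons: the receptor activates STAT factors, and these act on promoter elements in which GAAA half-sites are repeated. Ifitm3, also called fragilis, is mainly endosomal and is the best studied restriction factor for influenza virus, whereas Ifitm1 is found mostly at the cell surface and Ifitm2 in endosomes. Ifitm6 is less studied. Family members are also expressed without infection, in myeloid cells, germ cells and stem cells.

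All 4 genes lie on mouse chromosome 7 within 63.1 kb. In GENCODE M21 on GRCm38, Ifitm2 spans chr7:140954837-140955987 on the minus strand, Ifitm1 chr7:140967221-140969825 on the plus strand, Ifitm3 chr7:141009586-141010770 on the minus strand and Ifitm6 chr7:141015699-141017924 on the minus strand. Each has 2 exons and codes for protein. Because captured transcripts are read near their ends, the last 400 bases of each transcript were compared with the other members: 0 of 311 windows of 90 bases were shared by any pair, and the longest shared run was 64 bases, between Ifitm3 and Ifitm1.

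The promoters are shown because the family is defined by its response to interferon. They come from RefSeq (GRCm38.p6), run 5′ to 3′ on each gene's strand from 250 bases before the start site to 30 bases after it, and lie at chr7:140967826-140968105 (plus) for Ifitm1, chr7:140955932-140956211 (minus) for Ifitm2, chr7:141010715-141010994 (minus) for Ifitm3 and chr7:141016863-141017142 (minus) for Ifitm6. For Ifitm1 and Ifitm6 the RefSeq start lies inside the GENCODE gene model, so other start sites exist that are not shown. Capitals mark matches, on either strand, to GAAANNGAAA, a doubled half-site, or GGAANNGAAA, in which the first half-site is that of an ETS factor; matches were sought up to 50 bases after the start.
Ifitm1: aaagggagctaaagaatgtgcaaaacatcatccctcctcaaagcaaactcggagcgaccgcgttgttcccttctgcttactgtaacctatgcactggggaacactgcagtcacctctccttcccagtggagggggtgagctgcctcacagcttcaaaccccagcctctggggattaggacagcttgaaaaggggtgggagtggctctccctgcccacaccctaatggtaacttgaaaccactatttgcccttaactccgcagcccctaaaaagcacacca
Ifitm2: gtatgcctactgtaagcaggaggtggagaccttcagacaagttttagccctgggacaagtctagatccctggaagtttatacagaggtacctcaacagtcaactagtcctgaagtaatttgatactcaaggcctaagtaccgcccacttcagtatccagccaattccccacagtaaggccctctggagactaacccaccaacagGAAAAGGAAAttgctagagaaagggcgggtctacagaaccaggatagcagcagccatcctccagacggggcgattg
Ifitm3: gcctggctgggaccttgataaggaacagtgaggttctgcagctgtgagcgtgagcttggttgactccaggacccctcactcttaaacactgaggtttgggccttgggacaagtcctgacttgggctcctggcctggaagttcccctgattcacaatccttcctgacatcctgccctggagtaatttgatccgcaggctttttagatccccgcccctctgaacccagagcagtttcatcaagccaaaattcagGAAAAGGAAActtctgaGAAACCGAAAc
Ifitm6: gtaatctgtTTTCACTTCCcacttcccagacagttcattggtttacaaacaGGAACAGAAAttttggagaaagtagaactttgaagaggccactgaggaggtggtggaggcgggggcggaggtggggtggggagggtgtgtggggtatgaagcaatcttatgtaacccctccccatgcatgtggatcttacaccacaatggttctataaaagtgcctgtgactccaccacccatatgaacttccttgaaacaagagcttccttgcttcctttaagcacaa
Counting from the start site, Ifitm2 held GAAAAGGAAA at -46 to -37. Ifitm3 held the same 10 letters at 3 to 12 and GAAACCGAAA at 20 to 29, both just downstream of the start. Ifitm6 held GGAANNGAAA on the opposite strand at -241 to -232 and on its own strand at -199 to -190. Ifitm1 held neither motif in this window. Of 32851 RefSeq mouse promoters of the same length, 3.44% held GAAANNGAAA and 2.72% held GGAANNGAAA. Among 15 matched genes of a list of interferon-stimulated genes the shares were 53.3% and 13.3%. A STAT palindrome, TTCNNNGAA, occurred 1 time each in Ifitm3 and Ifitm6, 0 times in the others and in 8.3% of all promoters. A match is a description of letters and not a measured binding site.

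The WT NOD library held 13859 barcodes with 93553185 UMIs and the library labelled NOD.Cxcl16-/- 10554 barcodes with 98681133 UMIs. Filters on genes, mitochondrial UMIs and doublets left 10715 and 9323 cells, with medians of 3911 and 4901 UMIs. Marker gates named 80.2% and 82.1% of them, 507 and 795 as myeloid and 8083 and 6863 as lymphoid. The targeted gene went against its label: Cxcl16 stood at 102 UMIs per 1000000 UMIs (CPM), from 10062 UMIs, in the library labelled NOD.Cxcl16-/- and at 103 CPM, from 9668 UMIs, in the WT NOD library over all barcodes. Counts are per gene, so whether these UMIs lie outside a deleted part of the gene was not resolved, and directions below belong to libraries and not to a genotype. The libraries share 45 barcodes, and leaving these out moved no ratio of a member beyond its interval. Throughout, pairs of values give the WT NOD library first and the library labelled NOD.Cxcl16-/- second.

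The gates asked for subtype markers and allowed myeloid cells at most 1 T-cell marker. Levels of such markers therefore describe the gates and are no separate check of them. Cd3e, a T-cell marker of the gate, lay between 0 and 2.60 CPM in the 4 types named next. Xcr1, a chemokine receptor of type 1 conventional dendritic cells (cDC1), reached 214 and 244 CPM in cDC1. Cd209a marked type 2 conventional dendritic cells (cDC2) at 84.1 and 82.8 CPM, the complement gene C1qa marked macrophages at 5552 and 6933 CPM and Fscn1, an actin bundler, marked migratory dendritic cells at 1256 and 925 CPM. A group with at least 5 of 9 myeloid markers but no subtype gate, 240 and 336 cells, is called other myeloid. It was given no further name, and the genes that describe it here were picked and not ranked. The complement regulator Cfp stood at 400.3 and 375 CPM, Ppp1r14a at 347 and 289 and S100a4 at 4846 and 4234. The lysozyme Lyz2, itself a myeloid marker of the gate, stood at 694 and 512. Members were not used in any gate. All intervals are 95% exact Poisson or Clopper-Pearson intervals and cover counting error only, since cells of 1 library are not replicates. Levels are not compared between members, because UMIs were counted at transcript ends and were not set per length.

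Ifitm3 was highest in cDC2 and lowest in lymphoid cells in both libraries. cDC2, 42 and 99 cells, held 2635 (2506 to 2769) and 1886 (1813 to 1960.2) CPM. Other myeloid cells held 1588 (1537 to 1639.9) and 1422 (1384 to 1461) CPM, below cDC2 in both libraries. Macrophages came next at 1549.8 (1456 to 1648) and 618 (584 to 654) CPM from 1008 and 1189 UMIs, a range over the libraries that met both other myeloid cells and cDC1, the latter at 781 (728 to 837) and 518 (484 to 554) CPM. Migratory dendritic cells held 549.8 (497 to 607) and 514 (464 to 567) CPM, which did not separate from cDC1. Plasmacytoid dendritic cells lay below all of these at 65.1 (42.1 to 96.1) and 292 (244 to 348) CPM. Classical monocytes, only 14 and 16 cells, held 2962 and 3078 CPM and non-classical monocytes, 7 and 5 cells, 1647 and 2817 CPM. Both monocyte types were too few for the ordering of types with at least 30 cells in each library.

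Lymphoid types held little Ifitm3. T cells with neither Cd4 nor Cd8 UMIs stood at 80.9 (74.4 to 87.7) and 29.98 (25.8 to 34.6) CPM, CD4 T cells at 65.5 (59.7 to 71.7) and 32.5 (28.7 to 36.7) and regulatory T cells at 36.4 (27.4 to 47.5) and 30.1 (24.1 to 37.1). B cells held 28.5 (24.9 to 32.5) and 4.77 (3.49 to 6.36) CPM and CD8 T cells 17.4 (15.5 to 19.6) and 3.50 (2.52 to 4.73). From plasmacytoid dendritic cells down, each type's range over the libraries met that of its neighbour in this order. Natural killer cells gave 0 UMIs in the WT NOD library, where 3 UMIs would be 23.2 CPM, and 1 UMI in the other.

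Ifitm2 was highest in cDC2 as well, and among lymphoid types CD4 T cells led. cDC2 held 1233 (1145 to 1325) and 1027 (974 to 1083) CPM and other myeloid cells 814 (778 to 852) and 929.7 (899 to 961) CPM. Migratory dendritic cells, a mature state on its way to lymph nodes, held 749 (687 to 816) and 661 (605 to 721) CPM, above cDC1 at 498 (456 to 543) and 484 (451 to 519) CPM. Macrophages held 590.4 (533 to 653) and 336 (310.5 to 363) CPM, a range that overlapped cDC1. CD4 T cells followed with 82.1 (75.6 to 89.0) and 87.5 (81.2 to 94.2) CPM, inside the range set by plasmacytoid dendritic cells at 20.8 (8.99 to 41.0) and 129 (97.3 to 167) CPM. CD8 T cells of the same libraries held 11.0 (9.50 to 12.8) and 9.24 (7.60 to 11.1) CPM and B cells 5.27 (3.80 to 7.13) and 5.18 (3.85 to 6.83) CPM, so CD4 T cells lay above both in each library. Regulatory T cells, which also carry CD4, held 27.0 (19.3 to 36.8) and 39.5 (32.6 to 47.5) CPM.

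Ifitm1 was concentrated in 2 myeloid types. Other myeloid cells held 1014 (973 to 1056) and 909.8 (879 to 941) CPM and cDC2 762 (693 to 835) and 582 (542 to 624) CPM, and every other type with at least 30 cells lay below these in both libraries. Migratory dendritic cells held 198 (167 to 234) and 313 (275 to 355) CPM and cDC1 312 (279 to 348) and 144 (126 to 164) CPM, in opposite order in the 2 libraries. Macrophages, near the top for Ifitm3, came sixth in the order for Ifitm1 with 49.2 (33.7 to 69.5) and 49.9 (40.4 to 61.0) CPM. In plasmacytoid dendritic cells, at 143 and 117 CPM, 47 of 55 and 44 of 51 UMIs came from 1 cell each. The same held for classical monocytes of the WT NOD library, where 10 of 11 UMIs came from 1 cell. B cells held 3.26 (2.13 to 4.78) and 1.14 (0.569 to 2.04) CPM.

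Ifitm6 was highest in cDC2 and other myeloid cells and rested on few UMIs. cDC2 held 79.0 (58.1 to 105) and 91.7 (76.3 to 109) CPM and other myeloid cells 64.4 (54.5 to 75.6) and 62.3 (54.5 to 70.8) CPM. cDC1 followed with 31.0 (21.2 to 43.8) and 14.6 (9.36 to 21.7) CPM, and migratory dendritic cells held 5.62 (1.53 to 14.4) and 24.6 (14.8 to 38.4) CPM from 4 and 19 UMIs. Macrophages held 6.15 (1.68 to 15.7) and 7.28 (3.98 to 12.2) CPM. The few classical monocytes held 57.4 (23.1 to 118) and 98.1 (58.1 to 155) CPM. In B cells it gave 0 and 4 UMIs, against 0.377 CPM for the 3 UMIs that a count of 0 allows. No lymphoid type with at least 30 cells went above 1.96 CPM.

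**Figure D1:**
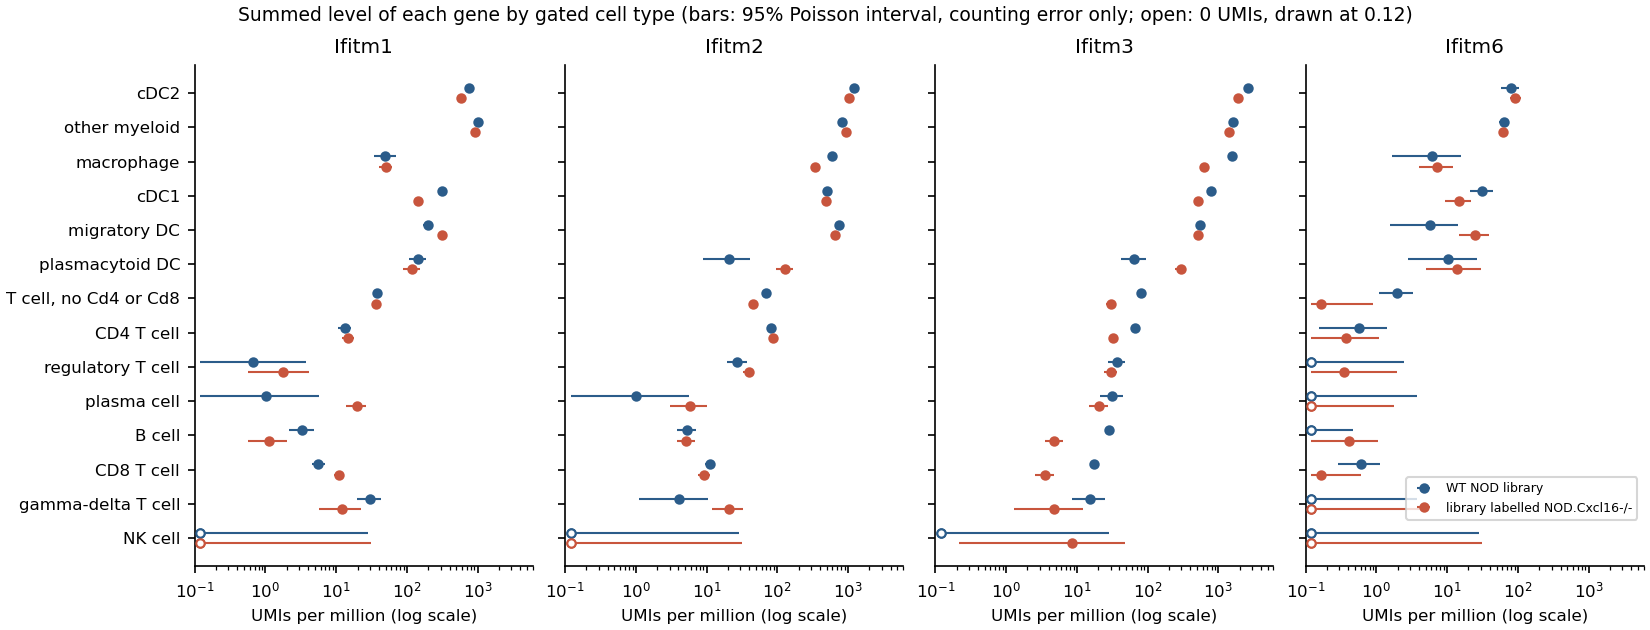
Level of each member by gated cell type, with CPM on a logarithmic axis, 1 marker per library and bars for 95% Poisson intervals. Open markers at the left edge stand for 0 UMIs, and the myeloid types at the top of each panel lie above the lymphoid ones for every member, except that plasmacytoid dendritic cells meet T cells for Ifitm2 and Ifitm3.

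Gated myeloid cells were 4.73% and 8.53% of kept cells and held 61.3% and 60.7% of all Ifitm1 UMIs, 52.3% and 48.3% of Ifitm2, 54.5% and 53.9% of Ifitm3 and 59.5% and 61.5% of Ifitm6. Other myeloid cells alone, 2.24% and 3.60% of cells, held 42.8% and 42.7% of Ifitm1 and 25.1% and 25.6% of Ifitm3. Most of the remainder sat in barcodes without a gate, which held 34.2% and 42.8% of Ifitm3. Lymphoid cells, 75.4% and 73.6% of cells, held 16.6% and 8.77% of Ifitm2 and 11.4% and 3.26% of Ifitm3.

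The share of a type's UMIs held by its top 10% of cells was read without thinning. The 10% of cDC2 with the most Ifitm3 UMIs held 27.6% and 24.8% of that type's Ifitm3, and the same 10% of macrophages 44.9% and 55.8%. For Ifitm1 the top 10% held 54.2% and 52.8% in other myeloid cells and 57.8% and 53.9% in cDC2. In macrophages it held 87.5% and 98.96% and in cDC1 83.9% and 82.3%. This share rises as UMIs per cell fall, so it does not compare evenness between genes or types of unlike level. Macrophages held only 32 and 96 Ifitm1 UMIs in 57 and 153 cells. Single cells that held many of a type's UMIs are named below with the ratios.

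To compare shares of cells at 1 depth, each cell was thinned to 2000 UMIs and shallower cells were left out, which were 21 and 13 other myeloid cells, 5 and 5 macrophages, 77 and 49 B cells, 118 and 41 CD4 T cells and none of the conventional or migratory dendritic cells. A UMI of Ifitm3 was then found in 90.5% (38 of 42 cells, 77.4 to 97.3) and 88.9% (88 of 99 cells, 81.0 to 94.3) of cDC2, in 75.3% and 77.4% of other myeloid cells, in 69.2% (36 of 52 cells, 54.9 to 81.3) and 43.9% (65 of 148 cells, 35.8 to 52.3) of macrophages and in 47.2% and 33.3% of cDC1. Without thinning, cDC2 gave 97.6% and 98.0% and macrophages 86.0% and 68.6%, at median depths of 13863 and 12952 UMIs in cDC2. B cells were set beside these as a lymphoid type with little Ifitm3. After thinning, 4.93% (74 of 1500 cells, 3.89 to 6.15) and 1.01% (18 of 1785 cells, 0.599 to 1.59) of them held an Ifitm3 UMI. Before thinning the shares were 9.77% and 2.02%, at medians of 4515 and 4518 UMIs. Whether these UMIs are stray transcripts or the B cells' own was not tested. Ifitm1 was found in 53.4% (117 of 219 cells, 46.6 to 60.2) and 41.8% (135 of 323 cells, 36.4 to 47.4) of other myeloid cells, 40.5% and 40.4% of cDC2 and 3.85% and 2.70% of macrophages, beside 0.467% and 0.280% of B cells. Ifitm2 was found in 81.0% and 79.8% of cDC2, 69.8% and 66.7% of migratory dendritic cells and 10.6% and 8.33% of CD4 T cells, beside 1.00% and 1.12% of B cells. Ifitm6 reached 11.9% and 10.8% of other myeloid cells and 9.52% and 12.1% of cDC2, beside 0% and 0.0560% of B cells.

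Combinations of Ifitm1, Ifitm2 and Ifitm3 in single thinned cells varied by type. All 3 were found together in 33.3% and 29.1% of other myeloid cells and 31.0% and 29.3% of cDC2, but in 3.85% and 0.676% of macrophages. Ifitm2 with Ifitm3 and no Ifitm1 was the commonest state of cDC2, at 47.6% and 40.4%. Ifitm2 alone made up 30.2% and 33.3% of migratory dendritic cells, and Ifitm3 alone 28.8% and 21.6% of macrophages. Ifitm1 without the other two was rare, in 4.11% and 1.86% of other myeloid cells and in at most 1.67% of the other 4 types. None of the 3 was found in 35.8% and 44.8% of cDC1 and 19.2% and 37.8% of macrophages.

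**Figure D2:**
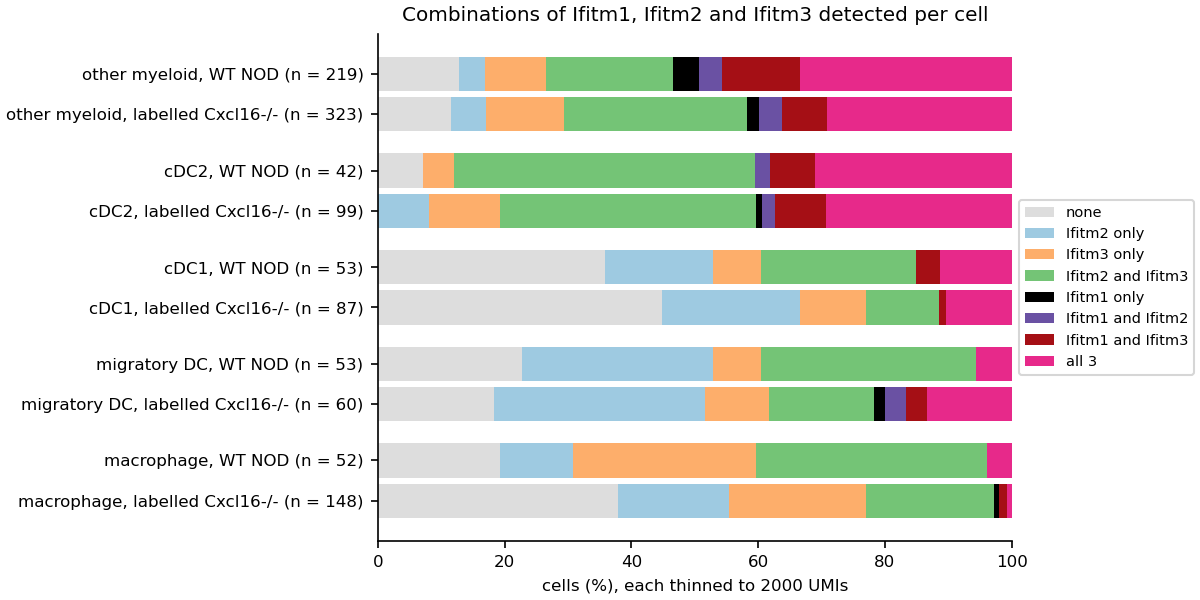
Share of cells, in percent, with each combination of Ifitm1, Ifitm2 and Ifitm3 after thinning to 2000 UMIs, as stacked bars for 5 myeloid types in both libraries. The part with all 3 genes is largest in other myeloid cells and cDC2, and nearly absent in macrophages.

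How often members met in the same cell was set against the product of their single shares. Intervals are those of the joint share divided by that product, which was held fixed. Error in the single shares is left out, so these intervals are too narrow a guide and are read as a description. The ratio cannot exceed 1 over the larger single share. For Ifitm2 with Ifitm3 the observed share over that product was 1.16 (1.01 to 1.31) and 1.11 (1.01 to 1.22) in other myeloid cells and 1.07 (0.863 to 1.22) and 0.983 (0.841 to 1.11) in cDC2. With the product held fixed, the intervals of other myeloid cells leave out 1. In cDC2 the single shares are so high that the ratio can lie only a little above 1. For Ifitm1 with Ifitm3 it was 2.12 (0.948 to 3.88) and 3.00 (1.48 to 5.25) in cDC1, where in the library labelled NOD.Cxcl16-/- 10 of 10 cells with Ifitm1 also held Ifitm3. Both values are the highest that the single shares allow, so their upper limits cannot be reached. In CD4 T cells the ratio for Ifitm2 with Ifitm3 was 2.36 (1.504 to 3.53) and 3.90 (2.08 to 6.65), from 23 and 13 cells. Both T-cell intervals lie above 1, again with the product held fixed.

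Cells with and without a member's UMI were then set side by side for other genes, which were chosen after their values were seen and are a description. In each such pair the cells with the member come first, and the WT NOD library comes first. Median depths are given because a deeper cell yields a UMI more readily. Among other myeloid cells, 162 and 208 held Ifitm1 and 78 and 128 did not, at medians of 11219.5 and 11706 UMIs with and 6482 and 10192 without. Lyz2 stood at 105 against 2645 and 217 against 1099 CPM. The endotoxin co-receptor Cd14 was likewise low in Ifitm1 cells, at 18.0 against 203 and 31.6 against 79.7 CPM. Ppp1r14a went the other way, at 398 against 177 and 328 against 210.0 CPM, and so did Abca13, at 109 against 29.8 and 80.6 against 12.9 CPM.

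CD4 T cells with Ifitm2, 236 and 230 cells, were low in Lef1 and Klf2 and high in the proliferation marker Mki67, the latter at 110.4 against 45.4 and 173 against 42.0 CPM. Lef1, a factor of resting T cells, stood at 55.9 against 246 and 51.3 against 209 CPM, and Klf2, which drives exit from tissue, at 180.4 against 533 and 131 against 488 CPM. The same cells were high in the TNF-family cytokine Tnfsf11, at 312 against 129 and 376 against 159 CPM, the enkephalin precursor Penk, at 318 against 78.7 and 224 against 62.5 CPM, and the chemokine Ccl1, at 109 against 5.09 and 76.8 against 2.85 CPM. Ifitm1 stood at 42.3 against 1.37 and 44.5 against 1.60 CPM, but 24 of all 94 and 82 of all 119 Ifitm1 UMIs of CD4 T cells came from 1 cell each. Median depths were 5343 and 6674 UMIs with Ifitm2 and 3981 and 4397 without. Insulin transcripts (Ins2), which come from beta cells, moved with Ifitm2 in 1 library only, at 390.4 against 40.3 and 106 against 128 CPM.

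Macrophages with an Ifitm3 UMI, 49 and 105 cells, differed from the 8 and 48 without one in S100a4, Plac8 and Irf7, and the 8 are too few to lean on. The calcium-binding S100a4 stood at 938 against 71.5 and 696 against 13.4 CPM, Plac8 at 478 against 23.8 and 129 against 11.2 CPM and Irf7, the interferon regulatory factor of the type I response, at 424 against 167 and 121 against 11.2 CPM. C1qa stood at 5121 against 11796 and 6692 against 7725 CPM. Macrophages with Ifitm3 had medians of 12470 and 13364 UMIs, and those without it 2742 and 8006. B cells with Ifitm3, 154 and 37 cells, held Ly6a, itself interferon-responsive, at 1096 against 603 and 797 against 426 CPM. Their Irf7 was at 64.8 against 27.7 CPM in the WT NOD library, while in the other, at 28.2 (11.3 to 58.1, from 7 UMIs) against 17.9 (15.3 to 20.8), the intervals overlapped. Isg15 stood at 16.7 against 10.5 and 4.03 against 8.19 CPM. The Fc receptor chain Fcer1g, a myeloid transcript, stood at 4.47 against 7.64 and 117 against 9.79 CPM. CD8 T cells with Ifitm3, 151 and 34 cells, carried transcripts of antigen-presenting cells: Cd74, the MHC class II invariant chain, stood at 2457 against 214 and 410.0 against 100.4 CPM and H2-Aa at 944 against 73.8 and 226 against 39.6 CPM. These CD8 T cells had medians of 2349 and 5507 UMIs, against 4830 and 5535 in those without Ifitm3.

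Between the libraries, ratios are log2 of (CPM + 1) in the library labelled NOD.Cxcl16-/- over (CPM + 1) in the WT NOD library. A gene was called where the fold was at least 1.5 and the counting interval left out 0, among genes with at least 20 UMIs over both libraries together. Ifitm3 was called lower in 6 of 12 types measured and higher in 1. Ifitm1 was called higher in 3 and lower in 3 of 12, Ifitm2 higher in 2 and lower in 2 of 12, and Ifitm6 higher in 1 and lower in 1 of 4. The share of all genes called stands beside each type. The interval carries no pseudocount, so at low counts it is not centred on the ratio. These calls describe 2 libraries and not the conditions. Cell types of 1 library share its mice and preparation, so they are not separate replicates of a difference.

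In macrophages Ifitm3 was lower in the library labelled NOD.Cxcl16-/-, with 1549.8 and 618 CPM and a log2 ratio of -1.32 (-1.45 to -1.20), and Ifitm2 was lower at -0.81 (-0.998 to -0.63). Ifitm1 was not called, at 0.02 from 32 and 96 UMIs, of which 18 and 37 came from 1 cell each. In macrophages 4.42% of all tested genes were called higher and 5.11% lower. The make-up of the gate differed too: Plac8 stood at 449 and 101 CPM, Ly6c2 at 129 and 17.2 and S100a4 at 883 and 537. Of 8 classical monocyte markers 7 had a UMI in each library, Chil3 being at 0, and their summed level was 284 and 103 CPM. All 10 macrophage markers were present at a summed 16619 and 22006 CPM. In the 32 and 115 macrophages without a Ly6c2 or Plac8 UMI, a comparison chosen after seeing the data, Ifitm3 stood at 543 and 391 CPM (ratio -0.47) and Ifitm2 at 419 and 273 CPM (ratio -0.61), so the Ifitm3 ratio was past 1.5-fold with those cells and not without them. Ifitm1 stood at 13.8 and 7.28 CPM there (ratio -0.84), and at 88.0 and 44.3 CPM (ratio -0.97) when macrophages could carry any number of T-cell markers.

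In cDC1, Ifitm1 was lower in the library labelled NOD.Cxcl16-/- at -1.11 (-1.36 to -0.87), Ifitm3 at -0.59 (-0.73 to -0.45) and Ifitm6 at -1.04 (-1.91 to -0.28), while Ifitm2 was not called at -0.04. There, 5.44% of all tested genes were called higher and 5.25% lower. C1qa went the other way, at 4.85 and 60.2 CPM, and its part in the result was not tested. Of the Ifitm1 UMIs, 119 of 322 and 53 of 237 came from 1 cell each, and 26.4% of cDC1 in each library held a UMI. With that cell left out of both libraries, a step chosen after seeing the data, Ifitm1 stood at 201 and 113 CPM, a ratio of -0.82. In cDC2 no member was called, with Ifitm3 nearest at -0.48 (-0.57 to -0.39), beside 3.58% of genes called higher and 4.01% lower. In other myeloid cells, the largest myeloid group, ratios were -0.16 for Ifitm1, 0.19 for Ifitm2, -0.16 for Ifitm3 and -0.05 for Ifitm6, none called, beside 2.51% of genes called higher and 3.95% lower.

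Migratory dendritic cells held more Ifitm1, at 0.66 (0.35 to 0.97), and more Ifitm6, at 1.95 (0.54 to 4.14), in the library labelled NOD.Cxcl16-/-, where 5.83% of all tested genes were called higher and 5.45% lower. Under stricter gates, with 24 and 27 cells, both ratios turned to the opposite sign, at -0.60 and -0.83. In the WT NOD library 59 of 141 Ifitm1 UMIs came from 1 cell, and without the cell highest in each library the Ifitm1 ratio was 1.11 (118 and 255 CPM). Plasmacytoid dendritic cells held more Ifitm2, at 2.57 (1.55 to 3.91), and more Ifitm3, at 2.15 (1.54 to 2.85), from 25 and 127 Ifitm3 UMIs, of which 11 and 39 came from 1 cell each, where 6.93% of all tested genes were called higher and 2.93% lower. Of the 8 and 56 Ifitm2 UMIs, 6 and 13 came from 1 cell each, and without those cells the Ifitm2 ratio was 4.08 (5.51 and 109 CPM). Macrophage markers moved with these: 5 of 10 and 7 of 10 had a UMI, their summed level was 33.9 and 865 CPM, and C1qa stood at 0 and 322 CPM. Plasma cell markers went the other way, at a summed 2922 and 522 CPM. Their part in the result was not tested.

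Over all gated myeloid cells the ratios were -0.26 for Ifitm1, -0.03 for Ifitm2, -0.29 for Ifitm3 and 0.01 for Ifitm6, none called, beside 2.63% of genes called higher and 4.13% lower. The rule that a myeloid cell may carry at most 1 T-cell marker mattered here. With any number allowed, 826 and 1216 cells, also chosen after seeing the data, the ratios were -0.57 for Ifitm1, -0.25 for Ifitm2, -0.58 for Ifitm3 and -0.40 for Ifitm6.

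Summed lymphoid cells differed in Ifitm3 and less in the other members. The Ifitm1 sums of some T-cell types leaned on single cells, as given below. Over all gated lymphoid cells Ifitm3 stood at 39.1 and 16.1 CPM, a ratio of -1.23 (-1.42 to -1.15), whereas Ifitm1 was at 0.08 and Ifitm2 at -0.04, beside 1.21% of genes called higher and 1.13% lower. B cells gave an Ifitm3 ratio of -2.35 (-3.07 to -2.12) from 227 and 46 UMIs, beside 2.64% and 1.93% of genes. The 9 myeloid markers of the gate in those B cells had a summed level of 1273 and 1343 CPM (8 of 9 and 9 of 9 with a UMI, Csf1r at 0 in the first), Lyz2 at 5.02 and 11.2 and C1qa at 2.26 and 6.43. The 10 macrophage markers summed to 349 and 325 CPM (9 with a UMI in each, Trem2 at 0). The 8 classical monocyte markers went the way of Ifitm3, at a summed 5.27 and 2.59 CPM from 42 and 25 UMIs (6 with a UMI in each, Chil3 at 0 in both), and their part in the result was not tested. Ifitm1 was also called lower in B cells, at -0.99 (-2.68 to -0.45), from 26 and 11 UMIs.

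CD4 T cells had 65.5 and 32.5 CPM of Ifitm3 and a ratio of -0.99 (-1.23 to -0.79), beside 1.69% of genes called higher and 2.54% lower. Their Ifitm2 was at 0.09 and their Ifitm1 at 0.15, neither of them called. Without the cell highest in Ifitm1 in each library, the Ifitm1 ratio was -0.95 (9.78 and 4.58 CPM). CD8 T cells had an Ifitm3 ratio of -2.04 (-2.82 to -1.85) from 289 and 42 UMIs and an Ifitm1 ratio of 0.86 (0.58 to 1.37), beside 2.33% and 2.21%. The Ifitm1 ratio of CD8 T cells turned to -0.19 when each cell's CPM was averaged. Without the cell highest in Ifitm1 in each library it was 0.69 (5.13 and 8.91 CPM). T cells with neither Cd4 nor Cd8 had -1.40 (-1.68 to -1.19) for Ifitm3 and -0.59 (-0.82 to -0.39) for Ifitm2, beside 2.26% and 4.04%. Their Ifitm1 was at -0.07 and not called, and at -0.40 (31.6 and 23.7 CPM) without the highest cell of each library.

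A transcript of antigen-presenting cells moved with Ifitm3 in the T cells. Cd74 stood at 312 and 108 CPM in CD8 T cells, 1064 and 356 in T cells with neither coreceptor and 132 and 92.2 in CD4 T cells. The 9 myeloid markers all had a UMI in CD8 T cells of both libraries, at a summed 415 and 387 CPM, and Lyz2 was at 8.32 and 16.2. In the 981 and 601 CD8 T cells without any MHC class II, Lyz2 or Tyrobp UMI, chosen after seeing the data, Ifitm3 stood at 4.58 and 2.33 CPM, with a ratio of -0.75. The same restriction gave -1.09 in CD4 T cells and -0.68 in T cells with neither coreceptor for Ifitm3. There, Ifitm2 stood at 47.4 and 41.3 CPM, a ratio of -0.19, so its call did not hold under the restriction. In CD8 T cells so restricted, Ifitm1 stood at 0.819 and 11.4 CPM, a ratio of 2.77. The whole CD8 type held only 93 and 132 Ifitm1 UMIs, the restricted cells fewer, and the restricted ratio was not read without its highest cells. In the 73 and 101 regulatory T cells so restricted, Ifitm3 stood at 35.0 and 18.6 CPM, a ratio of -0.88, against -0.27 before. The whole type held only 54 and 86 Ifitm3 UMIs. Restricted ratios are given without a counting interval and are not calls.

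Rarer lymphoid types gave calls on few UMIs. γδ T cells, 183 and 152 cells, held 29 and 10 Ifitm1 UMIs, a ratio of -1.24 (-2.51 to -0.23), and 4 and 17 Ifitm2 UMIs, a ratio of 2.07 (0.70 to 4.35), beside 6.02% of genes called higher and 2.17% lower. Of these Ifitm1 UMIs 13 of 29 and 9 of 10 came from 1 cell each, and without those cells the ratio was -2.98 (16.5 and 1.21 CPM). In the 69 and 43 γδ T cells without MHC class II, Lyz2 or Tyrobp UMIs the Ifitm1 ratio was 1.51, of opposite sign, at 15.7 and 46.7 CPM. The second value rests on the 1 cell that held 9 of the 10 Ifitm1 UMIs of its library. Plasma cells, 57 and 107 cells, held 1 and 40 Ifitm1 UMIs, of which 27 came from 1 cell, a ratio of 3.34 (1.70 to 9.60), beside 9.96% and 2.61%. Regulatory T cells had no member called, with Ifitm3 at -0.27 and Ifitm2 at 0.53, beside 2.74% and 3.17%.

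**Figure D3:**
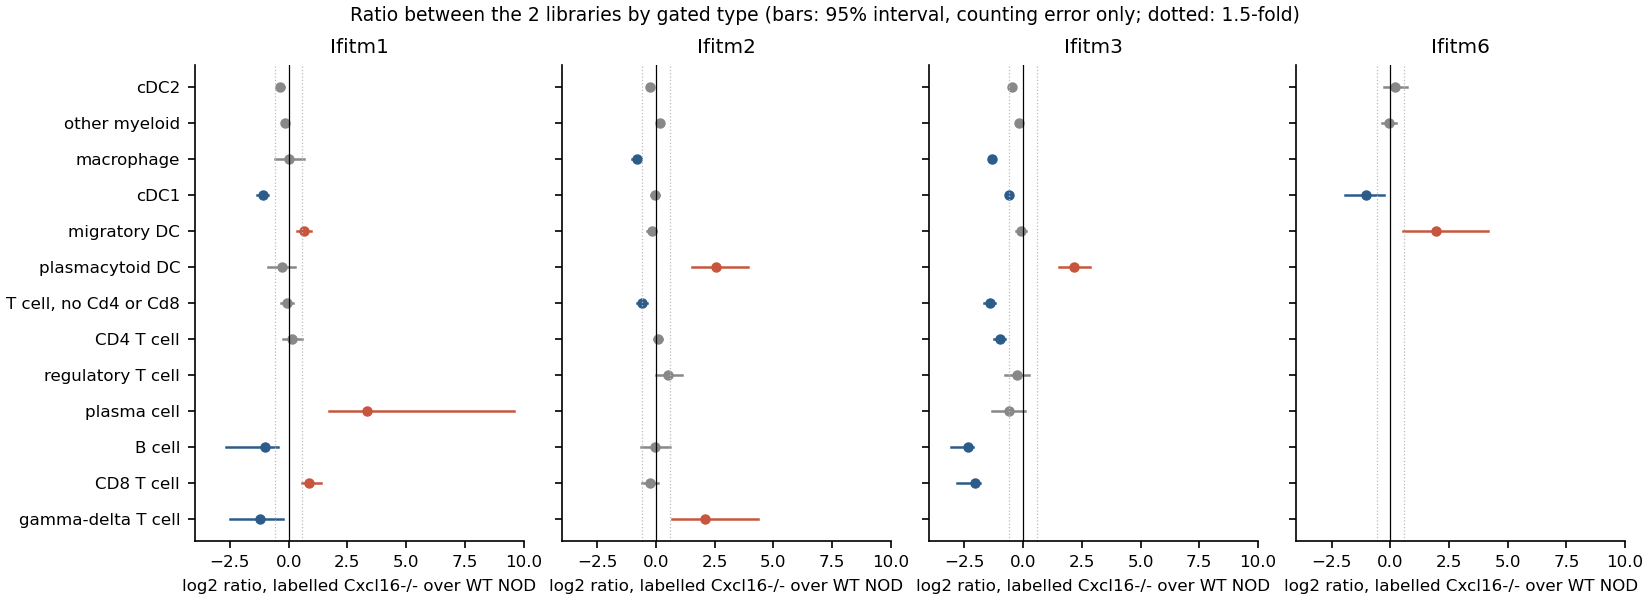
Log2 ratio of each member between the libraries by cell type, with counting intervals, red for called higher and blue for called lower in the library labelled NOD.Cxcl16-/-, grey for not called and dotted lines at 1.5-fold. Ifitm3 lies to the left of 0 in most types, and other myeloid cells lie near 0 for all 4 members.

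Type I interferon-stimulated genes were the pathway list closest to the family. The list held 20 genes, 19 of them in the files. Over all lymphoid cells it gave 0 higher and 10 lower of 19 measured, with a median log2 ratio of -0.59 against 0.01 over all genes, in a comparison where 1.13% of genes were called lower. Irf7 stood at 44.1 and 25.9 CPM (ratio -0.74), Isg15, a ubiquitin-like modifier, at 45.2 and 22.6 CPM (-0.97) and Ifit3, an inhibitor of viral translation, at 15.8 and 4.17 CPM (-1.70). By type the counts were 0 higher and 9 lower of 17 in CD4 T cells, 0 higher and 8 lower of 18 in CD8 T cells, 0 higher and 8 lower of 18 in T cells with neither coreceptor and 0 higher and 8 lower of 16 in B cells. Regulatory T cells, in which no member was called, gave 0 higher and 7 lower of 14. Plasma cells gave 0 higher and 3 lower of 7. γδ T cells gave 1 higher and 1 lower of 11, with a median log2 ratio of 0.23 against 0.10 over all genes.

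Macrophages gave 0 higher and 8 lower of 17 measured, with a median log2 ratio of -0.63 against -0.03 over all genes, with Irf7 at 407 and 95.7 CPM (-2.08). In cDC1, cDC2 and other myeloid cells genes of the list were called in both directions. cDC1 gave 2 higher and 2 lower of 16, with Irf7 at 168 and 56.0 CPM but Rsad2, the antiviral enzyme viperin, at 5.82 and 27.4 CPM. cDC2 gave 2 higher and 5 lower of 16, with Irf7 at 197 and 47.3 CPM and Ifit1, a binder of foreign RNA, at 57.2 and 107 CPM. Other myeloid cells gave 3 higher and 5 lower of 17. In cDC1, cDC2 and other myeloid cells alike, Ifit1 was called higher and both Irf7 and Ifit3 lower, with Ifit3 at 16.5 and 6.69 CPM, 55.5 and 16.3 CPM and 40.6 and 14.0 CPM. Migratory dendritic cells gave 0 higher and 6 lower of 14, with Irf7 at 263 and 20.7 CPM (-3.60). Plasmacytoid dendritic cells, the type with Ifitm2 and Ifitm3 called higher, gave 2 higher and 0 lower of 8, with Isg15 among them, at 59.9 and 108 CPM.

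Single cells were also sorted by how many of the 19 listed genes had a UMI after thinning to 2000 UMIs, a split chosen after seeing the data. With 0, with 1 or 2, and with 3 or more detected, Ifitm3 stood at 698, 1059 and 1926 CPM in gated myeloid cells of the WT NOD library (43, 212 and 224 cells) and at 653, 1044 and 1360.1 CPM in the library labelled NOD.Cxcl16-/- (88, 396 and 293 cells). cDC1 held 200, 720 and 1750 CPM and 41.7, 453 and 1136 CPM, with thin lowest groups of 10 and 12 cells and 4 and 1 UMIs. cDC2 held 1333, 2429 and 3160 CPM and 1206, 1800 and 2036 CPM, with thin lowest groups of 3 and 17 cells. Macrophages of the library labelled NOD.Cxcl16-/- held 333, 285 and 815 CPM, and those of the WT NOD library 250, 1529 and 1788 CPM, where the first value rests on 2 cells. At the same number detected, cDC2 lay above cDC1 in both libraries.

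The same split was made in lymphoid cells. B cells of the WT NOD library held 16.5, 30.1 and 60.4 CPM of Ifitm3 over 454, 897 and 149 cells. B cells of the library labelled NOD.Cxcl16-/- held 4.65, 6.35 and 3.45 CPM over 538, 1102 and 145 cells, the last from 1 UMI. CD4 T cells held 64.9, 63.2 and 112 CPM in the first library and 40.7, 20.8 and 6.25 CPM in the second. In gated myeloid cells Ifitm1 stood at 279, 531 and 641 CPM and at 250, 532 and 495 CPM, and Ifitm2 at 535, 663 and 886 CPM and at 631, 698 and 727 CPM. The myeloid sums mix types, and whether the mix of types differed between these groups of cells was not tested.

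**Figure D4:**
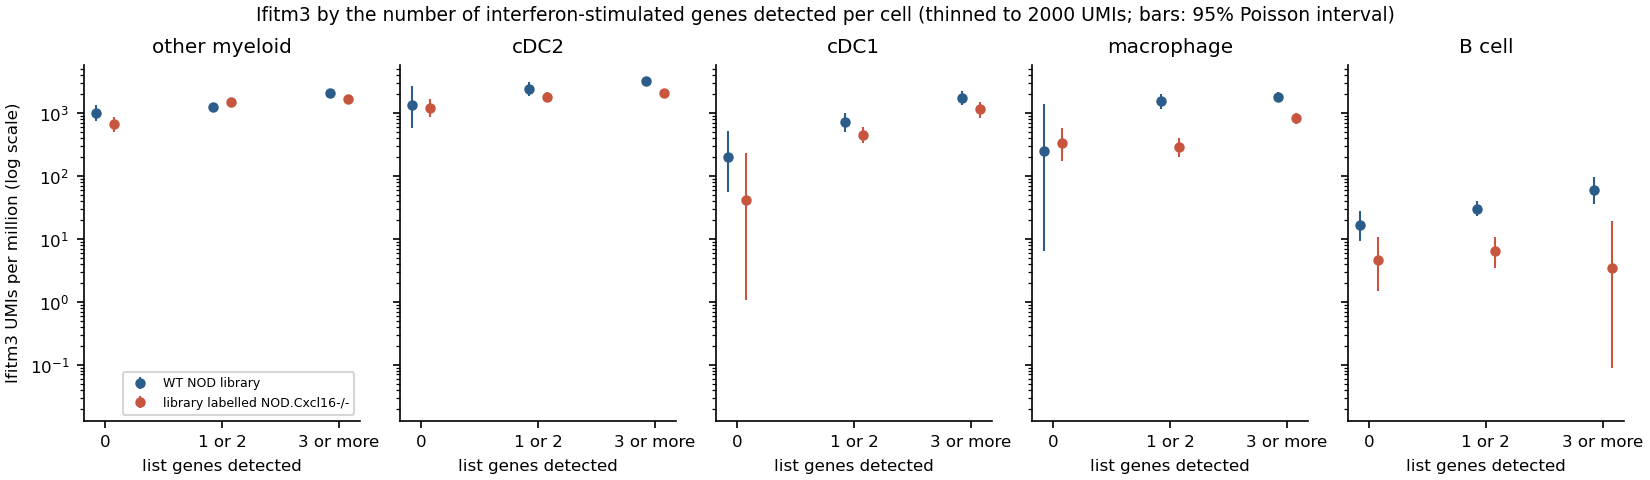
Ifitm3 level, in CPM on a logarithmic axis with 95% Poisson bars, in cells with 0, with 1 or 2 and with 3 or more of 19 interferon-stimulated genes detected, after thinning to 2000 UMIs. The level goes up with the number detected in cDC1, cDC2 and other myeloid cells of both libraries, and in B cells only in the WT NOD library.

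In the other lists few genes were called. Of 8 interferon receptor and signalling genes, 0 were called over all myeloid and over all lymphoid cells. By type, Ifnar2, a chain of the type I receptor, was called higher in cDC1 at 110.5 and 167 CPM, Ifngr2, a chain of the type II receptor, higher in plasmacytoid dendritic cells at 85.9 and 152 CPM, and the kinase Tyk2 lower in regulatory T cells at 22.3 and 10.8 CPM. γδ T cells had 1 called higher, Ifngr2 at 24.6 and 43.4 CPM, and 1 lower, Ifnar1, the other chain of the type I receptor, at 61.5 and 34.9 CPM. Of IFITM partners and modifiers, over all myeloid cells 1 higher and 0 lower of 8 were called, the 1 being the tetraspanin Cd81 at 56.7 and 96.0 CPM, and over lymphoid cells 0 higher and 0 lower of 10. By type, the methyltransferase Setd7 was called lower in macrophages, at 38.4 and 10.9 CPM. The ubiquitin ligase Nedd4 was called higher in cDC1, at 26.2 and 51.7 CPM, and in B cells, at 9.04 and 15.4 CPM, and lower in CD4 T cells, at 3.07 and 0.618 CPM. Cd81 was called higher in cDC1 and CD8 T cells, and Zmpste24 in cDC2.

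Endosomal membrane and viral-entry genes gave 1 higher and 0 lower of 11 over all myeloid cells, the 1 being Ch25h, which makes the antiviral oxysterol, at 1.53 and 4.96 CPM. In migratory dendritic cells the tetraspanins Cd63, at 710.1 and 387 CPM, and Cd9, at 202 and 122 CPM, were called lower, 2 of 10 measured. The opposite held in plasmacytoid dendritic cells, where the same 2 of 10 were called higher, Cd63 at 2.60 and 55.2 CPM and Cd9 at 15.6 and 46.0 CPM. cDC1 also gave 2 higher of 10, Cd63 at 6.78 and 20.7 CPM and Cd37 at 31.0 and 64.5 CPM. In macrophages Ch25h was called higher, at 10.8 and 25.5 CPM, and 1 gene each was called higher in CD8 T cells (Cd63) and plasma cells (Cd9). The lysosomal Lamp2 was called lower in cDC2, at 131 and 85.8 CPM, Lamp1 in γδ T cells, at 107 and 68.7 CPM, and Cd63 in T cells with neither coreceptor, at 6.31 and 1.96 CPM. Genes beside the cluster on chromosome 7 gave 0 higher and 0 lower of 5 over myeloid and 0 higher and 0 lower of 6 over lymphoid cells. By type, 1 neighbour each was called lower and 0 higher in macrophages (Pgghg, at 41.5 and 22.4 CPM), cDC2 (Pkp3), other myeloid cells (Sigirr, at 15.1 and 8.08) and CD4 T cells (Ptdss2, at 9.35 and 4.94). Other family members were scarce: over all kept cells Ifitm5, a bone gene, gave 12 and 32 UMIs, Ifitm7 15 and 9, and Ifitm10 416 and 330. Ifitm10 had 0 UMIs in gated myeloid cells and stood at 35.9 and 15.7 CPM in γδ T cells, where it was called lower.

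The members had also led a cluster of barcodes with few UMIs, so their level was read by depth. Among kept barcodes of 1000 to under 2000 UMIs, 835 and 207 had no gate, and these held 484 and 339 CPM of Ifitm3. Gated barcodes of the same depth, 1211 and 325, held 236 and 119.8 CPM. Ungated barcodes of 2000 to under 4000 UMIs held 371 and 212 CPM, those of 4000 to under 8000 held 394 and 138 CPM and those of 8000 or more held 435 and 333 CPM. Gated barcodes were lowest in the middle, at 68.4 and 32.5 CPM and 61.2 and 34.9 CPM, and reached 349 and 412 CPM at 8000 or more.

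Summed over barcodes, those without a gate held markers of several lineages. At 1000 to under 2000 UMIs they held Cd74 at 10658 and 8653 CPM, Cst3 at 2334 and 1334, the B-cell receptor chain Cd79a at 856 and 499 and the T-cell receptor chain Cd3e at 384 and 190.1, beside Ifitm1 at 142 and 119, Ifitm2 at 259 and 238 and Ifitm6 at 20.4 and 6.79. Those with no lineage at all, 100 and 66, held Ifitm3 at 996 and 439.8 CPM. At the deep end, 308 and 709 barcodes of 8000 or more UMIs carried markers of more than 1 lineage. These held 507 and 361 CPM of Ifitm3 and 23.2% and 40.0% of all kept Ifitm3 UMIs. Over all barcodes without a gate, Ifitm3 stood at 425 and 318 CPM. What these barcodes are was not tested.

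**Figure D5:**
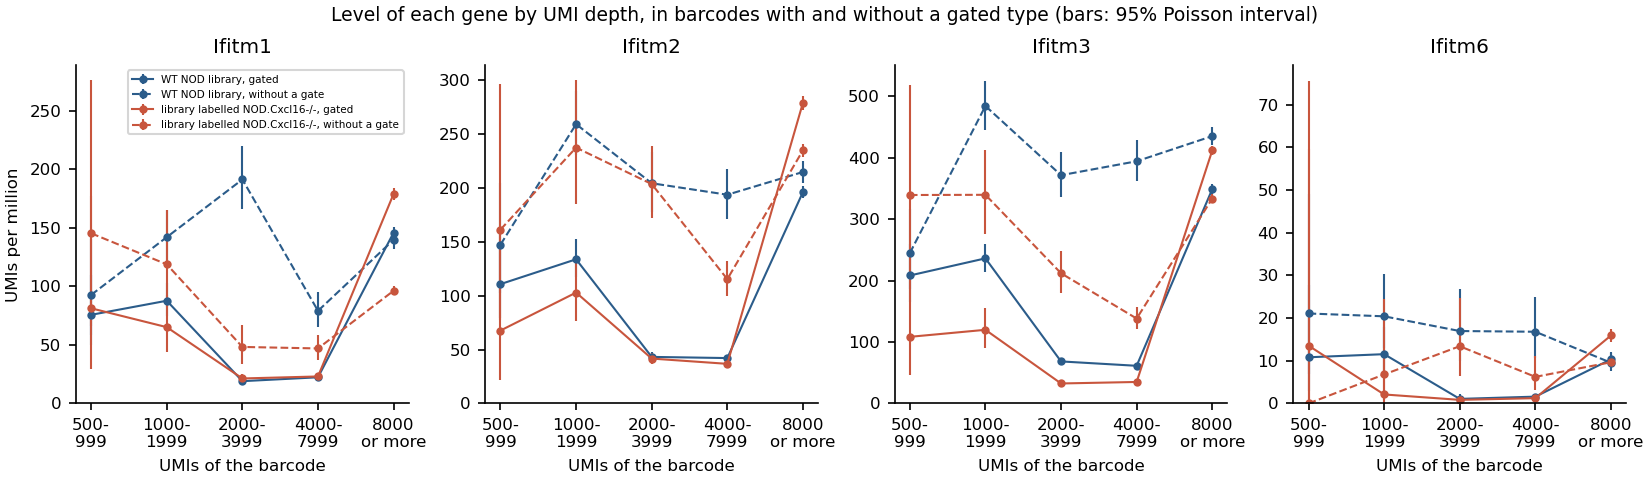
Level of each member, in CPM, by UMI depth of the barcode, with solid lines for gated and dashed lines for ungated barcodes in both libraries. Between 1000 and 2000 UMIs the ungated barcodes lie above the gated ones for Ifitm3 in both libraries.

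The genes whose profile was most like each member's were ranked by Pearson's r of log2(CPM + 1) over 22 points, 11 types with at least 50 cells per library in both libraries, among 8465 genes. These r are descriptions, since the points share libraries, depth and the gates. The limit of 50 cells left out cDC2, with 42 cells in the WT NOD library, and plasmacytoid dendritic cells. The profiles therefore lack cDC2, the highest type for Ifitm2, Ifitm3 and Ifitm6. For Ifitm3 the leading genes were Anpep (0.94), Gm50022 (0.94), Phf11d (0.94), Hfe (0.94) and Ralb (0.93), of which Anpep is the aminopeptidase CD13 and Hfe the haemochromatosis protein. For Ifitm2 they were Shtn1 (0.95), Vamp8 (0.95), Anxa5 (0.94), M6pr (0.94) and Etv6 (0.94), Vamp8 being an endosomal SNARE and M6pr the mannose-6-phosphate receptor. For Ifitm1 they were Gm27007 (0.91), Ppp1r14a (0.91), Pak1 (0.90), Kit (0.90) and Ctnnd2 (0.90), where Kit also served as a gating marker of innate lymphoid cells. For Ifitm6 they were Trem1 (0.97), Taldo1 (0.97), Nccrp1 (0.96), Mapk13 (0.96) and Gpr35 (0.96), Trem1 being an activating receptor of neutrophils and monocytes. Between members r ran from 0.80 for Ifitm1 with Ifitm3 to 0.89 for Ifitm2 with Ifitm3. The listed genes were picked as the highest of 8465, so a lower r between members is no finding. With Spearman's rank correlation 2 of the 5 genes remained for Ifitm1, 2 for Ifitm2, 0 for Ifitm3 and 0 for Ifitm6, so the ranking depends on the measure.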

How the data were processed

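Droplet single-cell RNA libraries of sorted islet leukocytes were deposited as counts: the authors' matrices hold whole UMI counts per gene and barcode, not normalized. Per the submitters' processing notes, Cell Ranger 7.0.1 and mm10 were used; whether intronic reads were counted is not given in the sources used here. From these counts, barcodes with at least 500 genes and at most 10% mitochondrial UMIs were kept, and doublets were scored against 2 simulated doublets per barcode and removed at 0.8% per 1000 barcodes. Cells were named by fixed markers: T cells by at least 3 T markers, B cells by at least 4 B markers, myeloid cells by at least 5 of 9 myeloid markers with at most 1 T and 1 B marker. UMIs were summed per type and library and scaled to 1000000 (CPM). The ratio calls were tried on simulated sums with counting error only. Neither single cells with many UMIs nor variation between libraries was simulated, so the trial does not cover these. The members, lists and comparisons were chosen with earlier results of these data known. The genes named are the 4 members, the genes of the fixed lists and, for each member, the 5 with the most similar profile; genes compared in cells with and without a member are an exception. With 1 library per group no test was run; calls need 1.5-fold, an interval that leaves out 0 and 20 UMIs. Alternatives changed doublets, filters (200 genes, 5% mitochondrial), gates, averaging, thinning, shared barcodes and the pseudocount (0.1 and 10 CPM for 1 CPM), and 4 were chosen after seeing the data. A few genes are not analysed or not reported here. Of the kept barcodes 37 and 40 are shared between libraries. Python 3.11.15, NumPy 2.4.6, SciPy 1.17.1, pandas 2.3.3, scikit-learn 1.9.0 and matplotlib 3.10.9 were used.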

Additional observations from a re-analysis of the deposited data

Results flagged for a closer look

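For each member the ratio between the libraries went up in some cell types and down in others, and the difference between types was not tested. Ifitm1 was lower in the library labelled NOD.Cxcl16-/- in cDC1 (-1.11), γδ T cells (-1.24) and B cells (-0.99) and higher in migratory dendritic cells (0.66), CD8 T cells (0.86) and plasma cells (3.34). Ifitm2 was lower in macrophages (-0.81) and in T cells with neither Cd4 nor Cd8 (-0.59; -0.19 without MHC class II, Lyz2 or Tyrobp cells), and higher in plasmacytoid dendritic cells (2.57) and γδ T cells (2.07). Ifitm3 was lower in macrophages (-1.32), cDC1 (-0.59), CD8 T cells (-2.04), CD4 T cells (-0.99), T cells with neither coreceptor (-1.40) and B cells (-2.35), and higher in plasmacytoid dendritic cells (2.15). Ifitm6 was lower in cDC1 (-1.04) and higher in migratory dendritic cells (1.95). Each value is a log2 ratio between single libraries.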

How the results depend on the processing

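Of 482 values from 44 ratios under 13 settings, 408 moved by less than the main interval allows, 70 moved further and 4 reversed. Ratios of every member kept within their intervals with 0.1 CPM added, 200 genes, 5% mitochondrial UMIs or shared barcodes left out. Reversed were Ifitm1 in migratory dendritic cells (-0.60) and Ifitm6 there (-0.83) under stricter gates, Ifitm1 in CD8 T cells (-0.19) with each cell's CPM averaged, and Ifitm1 in γδ T cells (1.51) without cells holding MHC class II, Lyz2 or Tyrobp. The γδ T-cell reversal rests on 1 cell of the library labelled NOD.Cxcl16-/-. The log2 ratio of Ifitm3 in macrophages moved to -1.65 thinned to 2000 UMIs and to -0.47 without Ly6c2 or Plac8 cells, and of Ifitm2 there to -0.61. Ifitm3 moved in CD8 T cells to -1.02 with 10 CPM added and to -0.75 without MHC class II, Lyz2 or Tyrobp cells, in CD4 T cells to -1.33 averaged and to -1.49 thinned, and in B cells to -1.38 with 10 CPM added. Over all gated myeloid cells with any number of T-cell markers, Ifitm1 moved to -0.57, Ifitm2 to -0.25, Ifitm3 to -0.58 and Ifitm6 to -0.40; thinning gave -0.11 for Ifitm2 and -0.36 for Ifitm3, and stricter gates -0.35 for Ifitm3. Settings that remove cells or UMIs leave fewer of them; beyond that the cause was not tested. Depth limits Ifitm6 outside dendritic and other myeloid cells and every member in natural killer cells, where 3 UMIs are 23.2 and 25.6 CPM. No paired analysis was possible because each group is 1 library.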
